A study of Homo sapiens with 6 samples.

Results

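Small nucleolar RNAs (snoRNAs) and small Cajal body RNAs (scaRNAs) were followed in the human colorectal carcinoma line HCT116, whose cells carried either the N106S substitution in both copies of eIF6 or the unaltered gene. The members were the rows of the expected count table whose symbol begins with SNORA, SNORD or SCARNA and whose count was at least 10 in 3 or more of the 6 libraries. This rule took 82 of the 575 symbols of these classes, in a table of 59251 symbols. Of the members, 47 were H/ACA snoRNAs (of 182 SNORA symbols), 20 were C/D snoRNAs (of 364 SNORD symbols) and 15 were scaRNAs (of 29 SCARNA symbols).

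There were 3 RNA libraries of the homozygous mutant, called MUT, and 3 of wild-type HCT116 cells, called WT. According to the labels' protocols the mutant lines were clones made by CRISPR/Cas9 editing, both genotypes grew in the same medium without a drug treatment, cells were taken before confluence, RNA was extracted with phenol and chloroform, and a NEBNext Ultra II kit was used for the libraries. Which clone each MUT library came from, and whether replicates were separate cultures, is not in the labels, so the p-values speak only of the spread among these libraries, which may be technical. Ribosome profiling named in the series was not analysed here.

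Most snoRNAs are cut from introns of host genes and act in the nucleolus as guides. H/ACA snoRNAs fold into hairpins, end shortly after an ACA box and direct pseudouridylation by dyskerin, whereas C/D snoRNAs carry a C box (TGATGA in DNA letters) and a D box (CTGA) and direct ribose methylation by fibrillarin; scaRNAs use the same architectures, alone or combined, to guide changes in spliceosomal RNAs in Cajal bodies. A few, such as U3, U8 and U17, take part in cutting the ribosomal RNA precursor instead. eIF6, the protein altered in the mutant, binds the large ribosomal subunit and keeps it from joining the small one.

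The sequences of 6 members are shown because the results turn on them: the U17 pair SNORA73A and SNORA73B, which divided their counts differently in the 2 genotypes; SNORD3A, the U3 RNA and the most abundant member; and SNORA21, SNORD32A and SNORD104, the 3 members with the smallest p. They are transcript sequences of GENCODE release 29 on GRCh38, written 5′ to 3′ in DNA letters. Capitals mark, in H/ACA snoRNAs, the match to the H box pattern ANANNA nearest the middle and the ACA that stands 3 bases before the end, and in C/D snoRNAs the first TGATGA and the last CTGA. SNORA73A lies at chr1:28507366-28507571 and SNORA73B at chr1:28508559-28508762, both on the plus strand in introns of SNHG3. SNORD3A lies at chr17:19188016-19188232 on the plus strand outside any host gene, SNORA21 at chr17:38852863-38852994 on the minus strand in an intron of RPL23, SNORD32A at chr19:49489965-49490048 on the plus strand in an intron of RPL13A, and SNORD104 at chr17:64146083-64146152 on the plus strand in an intron of SNHG25.
SNORA73A: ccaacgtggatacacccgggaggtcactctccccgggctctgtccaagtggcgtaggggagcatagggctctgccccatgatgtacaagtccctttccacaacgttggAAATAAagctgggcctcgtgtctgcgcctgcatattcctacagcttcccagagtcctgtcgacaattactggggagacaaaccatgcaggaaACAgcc
SNORA73B: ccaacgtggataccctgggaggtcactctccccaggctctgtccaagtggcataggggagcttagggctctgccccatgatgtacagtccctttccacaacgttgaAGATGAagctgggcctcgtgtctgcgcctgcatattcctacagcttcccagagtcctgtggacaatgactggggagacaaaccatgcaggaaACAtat
SNORD3A: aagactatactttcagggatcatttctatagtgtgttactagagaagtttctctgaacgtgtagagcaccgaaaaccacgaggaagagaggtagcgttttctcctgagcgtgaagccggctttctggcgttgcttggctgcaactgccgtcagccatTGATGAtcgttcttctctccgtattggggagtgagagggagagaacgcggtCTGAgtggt
SNORA21: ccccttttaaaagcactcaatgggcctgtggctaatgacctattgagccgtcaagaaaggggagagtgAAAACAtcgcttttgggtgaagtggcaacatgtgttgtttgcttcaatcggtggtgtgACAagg
SNORD32A: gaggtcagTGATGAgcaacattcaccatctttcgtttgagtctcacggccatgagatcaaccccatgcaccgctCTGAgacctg
SNORD104: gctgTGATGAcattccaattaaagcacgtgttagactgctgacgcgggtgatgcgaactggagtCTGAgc

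Libraries held 53986494 to 87656970 counts, of which the members had 0.0603% to 0.103%. The RNA of the signal recognition particle and its copies took 59.4%, 43.3% and 59.2% of the counts of the MUT libraries and 64.4%, 56.9% and 64.2% of those of the WT libraries, and ribosomal RNA took 3.51% of MUT replicate 2 and 1.08% of WT replicate 1, against 0.0886% to 0.233% in the other libraries. The normalisation factors ranged from 0.676 in WT replicate 3 to 1.68 in MUT replicate 2. EIF6 mRNA had 36.7, 30.7 and 35.7 CPM (counts relative to the scaled library size) in MUT and 43.3, 47.9 and 47.4 CPM in WT, and a substitution cannot be checked from counts per gene. Of 7 epithelial markers 5 passed the filter on low counts, all but VIL1 and KRT20. CDH1, which passed, averaged only 0.295 CPM in MUT and 0.702 CPM in WT. Of 6 markers of other cell types 2 passed, with PTPRC and CD3E at 0 in every library. The 2 were VIM, at means of 2.21 CPM in MUT and 1.86 CPM in WT, and COL1A1, at 0.762 and 0.480 CPM.

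The classes were checked against sequence. Of the 82 members, 71 had a GENCODE sequence. ACA followed by exactly 3 bases ended 32 of 44 H/ACA members, 6 of 12 scaRNAs and 0 of 15 C/D members, against 112 of all 149 H/ACA, 14 of 24 scaRNA and 4 of 288 C/D transcripts in GENCODE. TGATGA within the first 25 bases together with CTGA within the last 20, both read on the transcript strand, was found in 9 of 15 C/D members, 5 of 12 scaRNAs and 0 of 44 H/ACA members, against 188 of 288, 5 of 24 and 0 of 149 in GENCODE. A sequence without these letters in these windows was not read as lacking the box.

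Short RNAs were nearly absent from the tables. The ratio of the deposited count to the deposited FPKM gave each RNA an effective length that was its RefSeq length less 75 bases (range 74.9 to 75.03 over the 41 members with at least 20 counts in every library). All 146 symbols of 75 bases or shorter were SNORD genes, and none of them had a count in any library. In all, 354 of the 575 symbols were at 0 in all 6 libraries, and 291 of these were SNORD genes. Members made up 7 of 303 symbols under 100 bases, or 2.31%, 49 of 217 symbols of 100 to under 150 bases, or 22.6%, and 26 of 53 symbols of 150 bases or more, or 49.1%. The C/D members had a median length of 121 bases, against 79.5 bases for the SNORD symbols left outside, so the 20 C/D members are the long end of their class.

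**Figure D1:**
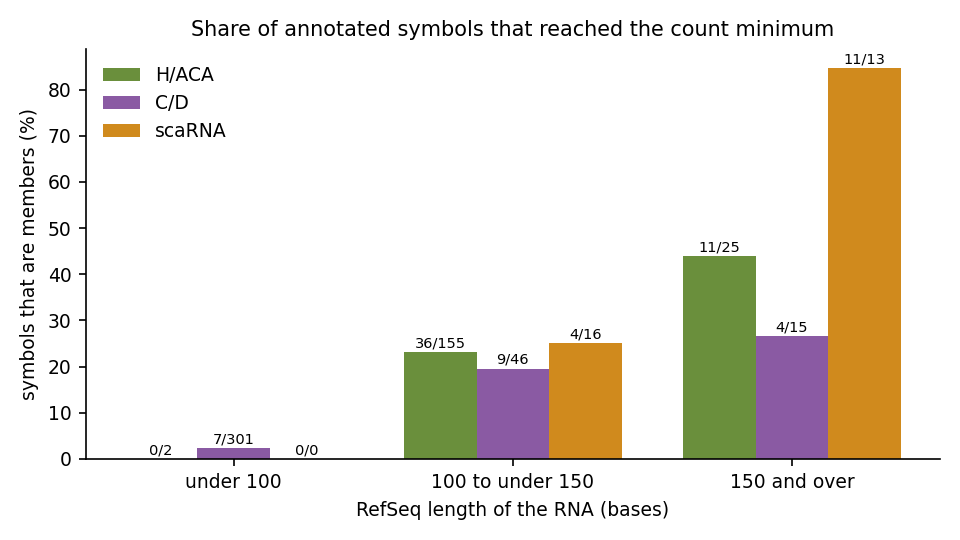
Percentage of annotated symbols that are members (vertical axis), by RefSeq length in bases (horizontal axis) and class (colours); the counts on the bars are members over symbols. Of the 301 SNORD symbols under 100 bases 7 are members, and of the 13 SCARNA symbols of 150 bases or more 11 are.

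Most members reached the minimum count in every library: 57 had at least 10 counts in all 6 libraries, and 7 reached it in exactly 3. Fewer were clearly above the minimum, since 41 members had at least 20 counts in every library. No member passed through the MUT libraries alone, while SCARNA21 and SNORA49 passed through the WT libraries alone. Among those just inside the threshold were SCARNA21 with 7, 5 and 7 counts in MUT and 14, 10 and 11 in WT, SNORA33 with 9, 8 and 11 in MUT and 10, 12 and 4 in WT, and SNORA49 with 6, 1 and 8 in MUT and 11, 18 and 10 in WT. Among those just outside were SCARNA4 with 9, 6 and 6 counts in MUT and 2, 9 and 9 in WT, SNORA27 with 11, 4 and 11 in MUT and 2, 2 and 9 in WT, and SNORA6 with 8, 14 and 9 in MUT and 8, 6 and 9 in WT.

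A few RNAs carried most of the signal. The 10 members with most counts held 82.0% to 88.2% of the members' counts in a library. SNORD3A, the U3 RNA that pairs with the ribosomal RNA precursor in early small subunit assembly, held 62.6% to 85.3% of the C/D counts, and SNORD133 held 8.66% to 29.6%. SNORA73B and SNORA73A held 28.6% to 38.9% and 15.1% to 29.4% of the H/ACA counts, and SCARNA2, a scaRNA with a promoter of its own, held 43.9% to 59.8% of the scaRNA counts. On the TPM scale, which corrects for length, SNORD3A averaged 527 ± 181 TPM in MUT and 580 ± 291 TPM in WT (SD, n = 3 each). The next highest were SNORD133 at 181 ± 86.6 TPM in MUT and 104 ± 19.2 TPM in WT, and SNORA73B at 129 ± 14.9 TPM in MUT and 131 ± 22.3 TPM in WT. The order of SNORD133 and SNORA73B does not hold in both genotypes.

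No single member differed between the genotypes at an adjusted p below 0.05. The comparison of MUT with WT, by edgeR's quasi-likelihood F-test with Benjamini-Hochberg adjustment over all 14808 genes that passed the filter on low counts, tested 78 of the 82 members. It called 0 of them, against 1.91% of all tested genes (0.986% higher and 0.925% lower in MUT). The members left untested were SNORA33, SNORA49, SNORA5A and SCARNA21. An unadjusted p below 0.05 was reached by 12 members, all lower in MUT (7 H/ACA, 3 C/D and 2 scaRNAs), against 9.84% of all genes lower and 9.79% higher. DESeq2 called 3 members lower in MUT, against 2.78% of all genes, and edgeR without the filter on low counts called 13 lower, against 1.8%.

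The fold changes lay mostly below 0. Among the tested members 63 of 78 had a negative log2 fold change of MUT over WT, against 51.3% of all tested genes, and the median was −0.43, against −0.01 for all genes. By class, whose order changed when MUT replicate 1 was left out, 36 of 44 H/ACA snoRNAs, 16 of 20 C/D snoRNAs and 11 of 14 scaRNAs were below 0, with medians of −0.35, −0.56 and −0.18. CPM values of the 2 groups did not overlap for 12 members that were lower and 1 that was higher in MUT, against 13.4% and 12.8% of all tested genes. The 3 classes were not tested against each other; their ranges, −1.26 to 0.98, −1.61 to 0.44 and −0.86 to 0.24, overlapped widely. When libraries were scaled by their total alone the median of all genes was 0.54 and that of the members 0.07, and 62 of 78 members lay below the all-gene median, against 61 of 78 under the main scaling. The median was −0.18 without MUT replicate 2 and −0.18 without WT replicate 3, each with 52 of 82 members below the all-gene median, and −0.67 without MUT replicate 1, so its size depended on single libraries. With single libraries left out, 29 of the 78 tested members changed sign at least once and 67 moved by over 1.5 times or changed sign. These changes, and the fold changes given below for a left-out library, were taken after a shift. It set the all-gene median of each fit to the −0.01 of the main fit. In bulk RNA, fewer cells with a given RNA and less of that RNA per cell cannot be told apart.

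**Figure D2:**
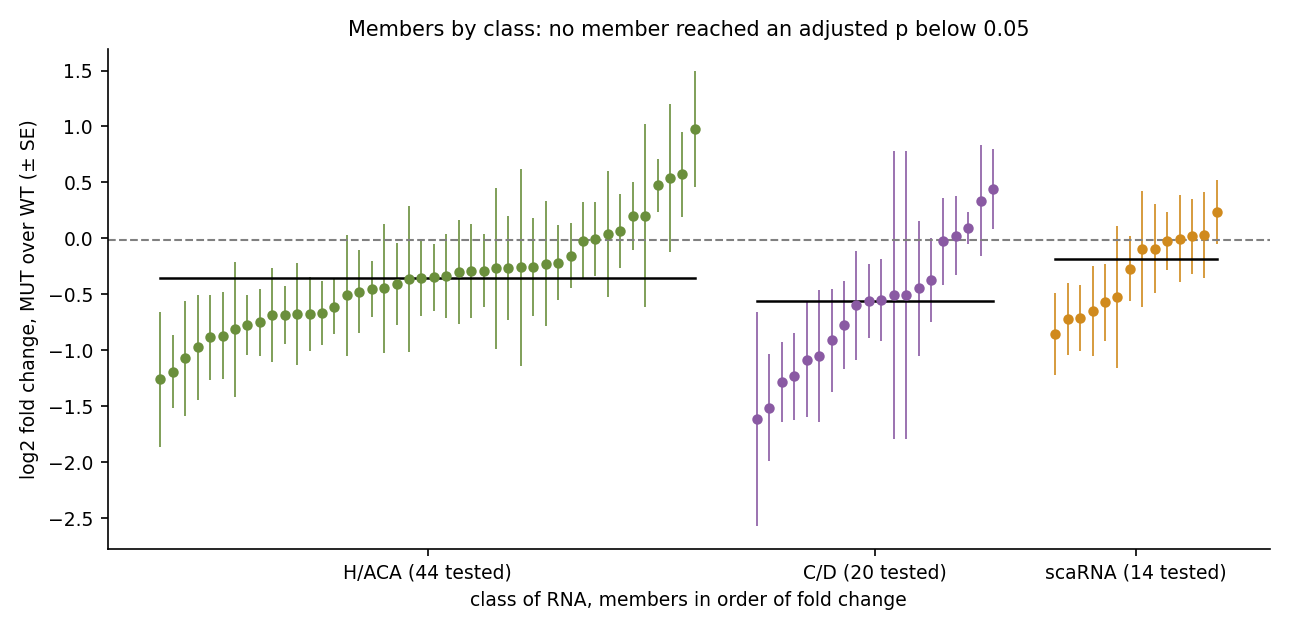
Log2 fold change of MUT over WT with its standard error (vertical axis) for the 78 tested members, ordered within their class (horizontal axis). Solid lines are the class medians of −0.35, −0.56 and −0.18 and the dashed line is the median of all tested genes, −0.01; most points lie below it.

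The summed counts of the classes did not separate the genotypes. H/ACA members took 24.0%, 24.0% and 23.8% of the members' counts in MUT and 25.8%, 22.4% and 19.4% in WT. C/D members took 35.7%, 49.0% and 48.3% in MUT and 44.5%, 47.2% and 57.8% in WT. The scaRNAs took 40.3%, 27.0% and 27.9% in MUT and 29.7%, 30.5% and 22.8% in WT, so the groups overlapped in each class. The ratio of summed H/ACA to summed C/D counts was 0.673, 0.490 and 0.492 in MUT and 0.579, 0.474 and 0.337 in WT, a log2 difference of 0.27 that was smaller than the spread between replicates (SD 0.34). It was 0.06 without WT replicate 3 and −0.03 without the most abundant member of each class.

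The 2 copies of U17 divided their counts differently in the 2 genotypes. U17 is an H/ACA snoRNA that does not guide a modification but is required for cutting out the 18S ribosomal RNA; both copies lie in introns of SNHG3. SNORA73A had 3884, 3539 and 3323 counts in the MUT libraries and 2430, 1778 and 1931 in the WT libraries. SNORA73B had 4470, 3435 and 3383 counts in MUT and 4714, 4252 and 4964 in WT. SNORA73A thus made up 46.5%, 50.7% and 49.6% of the pair's counts in MUT (48.9% ± 2.19, SD, n = 3) and 34.0%, 29.5% and 28.01% in WT (30.5% ± 3.13, SD, n = 3). The groups do not overlap, and the share does not depend on how the libraries were scaled, since both copies come from the same library.

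The difference of 18.4 percentage points was several times the SD within the groups; it was between 17.2 and 20.2 when any 1 library was left out and 18.4 from TPM. The pair was singled out after its values were seen, so no test is given. As printed above, the 2 RNAs were 93.2% identical and differed by 14 single-base edits, spread along their length. A read that covers none of these fits either copy, and the authors' estimator then divides it. How many reads were of this kind, and the part of that division in the difference, was not tested.

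Taken one at a time, neither copy passed. SNORA73A had 51.7, 36.3 and 55.7 CPM in MUT and 35.2, 23.8 and 44.7 CPM in WT, which overlap (log2 fold change 0.47, SE 0.24, edgeR adjusted p = 0.325). SNORA73B had 59.5, 35.3 and 56.7 CPM in MUT and 68.3, 56.8 and 114.9 CPM in WT, which overlap too (log2 fold change −0.66, SE 0.29, edgeR adjusted p = 0.244). SNORA73A was 0.27 without WT replicate 2, and SNORA73B −0.33 without WT replicate 3. Counts of both copies summed to 8354, 6974 and 6706 in MUT and 7144, 6030 and 6895 in WT. SNHG3, the noncoding host, had 13.9, 19.6 and 15.1 CPM in MUT and 23.8, 22.1 and 24.3 CPM in WT; these did not overlap (log2 fold change −0.53, SE 0.15, edgeR adjusted p = 0.0994). RCC1, a protein-coding gene that also spans the pair, had a log2 fold change of 0.28 (SE 0.13, edgeR adjusted p = 0.276).

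**Figure D3:**
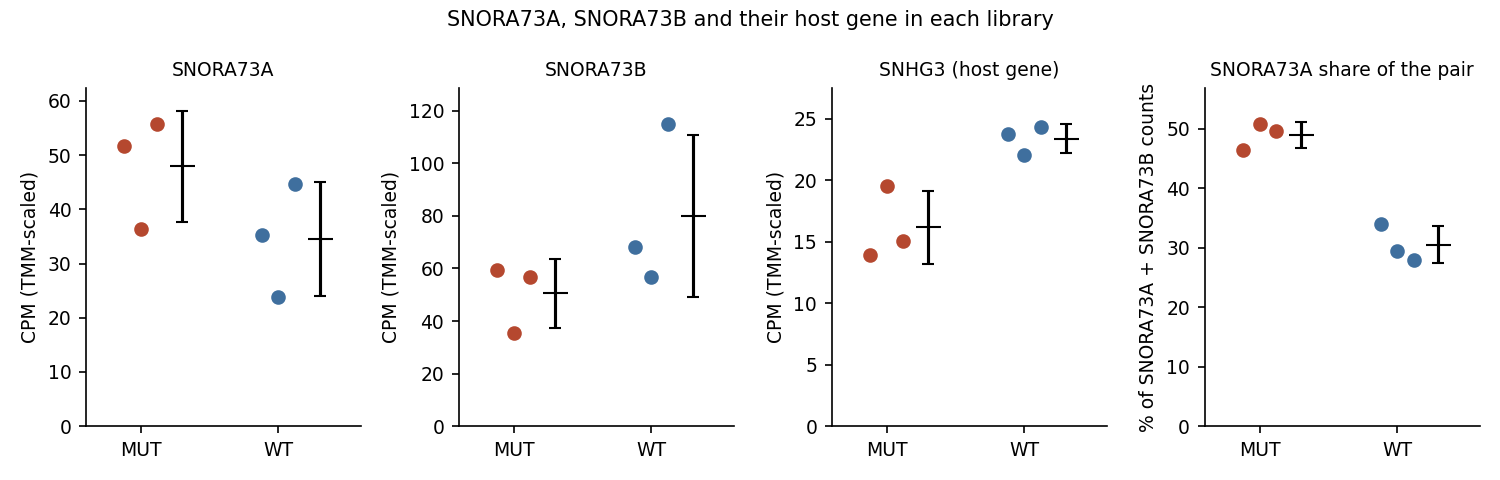
CPM of SNORA73A, SNORA73B and SNHG3 and the percentage of the pair's counts assigned to SNORA73A (vertical axes) in the 3 MUT (left) and 3 WT libraries (right) of each panel; points are libraries and bars the mean ± SD. The SNORA73A share lies between 46.5% and 50.7% in MUT and between 28.01% and 34.0% in WT.

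Other members that share a host could be compared in the same way, free of library scaling. Of 16 such pairs, 3 did not overlap between the groups, set against 26.1% of all tested genes by CPM. The pair of SNORA63 and SNORA81, from EIF4A2, had as few as 96 counts in a library. SNORA63 made up 43.2%, 30.8% and 45.5% of its counts in MUT and 51.0%, 47.9% and 46.6% in WT. Of the 5 pairs with at least 100 counts in every library, 2 did not overlap. Beside the U17 pair this was SCARNA5 and SCARNA6, scaRNAs from introns of ATG16L1 that are only 62.7% identical. SCARNA5 made up 61.8%, 66.3% and 63.8% of that pair's counts in MUT and 59.9%, 48.7% and 55.5% in WT. The lowest MUT value, 61.8%, and the highest WT value, 59.9%, lay close together. Singly, SCARNA5 had a log2 fold change of 0.24 (SE 0.28, edgeR adjusted p = 0.713) and SCARNA6 one of −0.27 (SE 0.29, edgeR adjusted p = 0.671). With single libraries left out they ranged from 0.0045 to 0.61 and from −0.51 to 0.064.

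The 3 members with the smallest p were guide RNAs that lay lower in MUT; they were picked by that p after the values were seen. SNORA21, which guides pseudouridylation of 28S ribosomal RNA, had 0.639, 0.750 and 0.955 CPM in MUT and 1.45, 1.22 and 2.75 CPM in WT. Every MUT library was below every WT library (log2 fold change −1.19, SE 0.32, edgeR adjusted p = 0.0955, and −0.79 without WT replicate 3). SNORD32A, a C/D guide for ribosomal RNA methylation, had 1.33, 0.606 and 1.37 CPM in MUT and 2.58, 1.72 and 3.75 CPM in WT, again without overlap (log2 fold change −1.28, SE 0.36, edgeR adjusted p = 0.102). SNORD104, a C/D guide for 28S ribosomal RNA, had 26, 13 and 10 counts in MUT and 60, 27 and 27 in WT, so it rests on few reads. Its CPM values were 0.346, 0.133 and 0.168 in MUT and 0.869, 0.361 and 0.625 in WT, which do not overlap (log2 fold change −1.51, SE 0.48, edgeR adjusted p = 0.131). By RefSeq SNORD104 has 80 bases and SNORD32A 82, which left effective lengths of only 5 and 7 bases. The GENCODE sequence of SNORD104 printed above is shorter, at 70 bases. Which RNA species gave these reads was not tested.

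These 3 were the ones that DESeq2 called. Their adjusted p ranged over the settings tried from 9.35e-05 to 0.626 for SNORA21 and from 5.51e-07 to 0.611 for SNORD32A, the lowest in each case from a fit without the filter on low counts. The host of SNORA21, RPL23, had a log2 fold change of −0.46 (edgeR adjusted p = 0.332), that of SNORD32A, RPL13A, one of −0.34 (adjusted p = 0.513) and that of SNORD104, SNHG25, one of −0.37 (adjusted p = 0.536). SNORA50C, which overlaps an exon of SNHG25, had 1.74, 1.04 and 1.86 CPM in MUT and 2.56, 2.004 and 3.38 CPM in WT (log2 fold change −0.78, SE 0.27, edgeR adjusted p = 0.154).

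**Figure D4:**
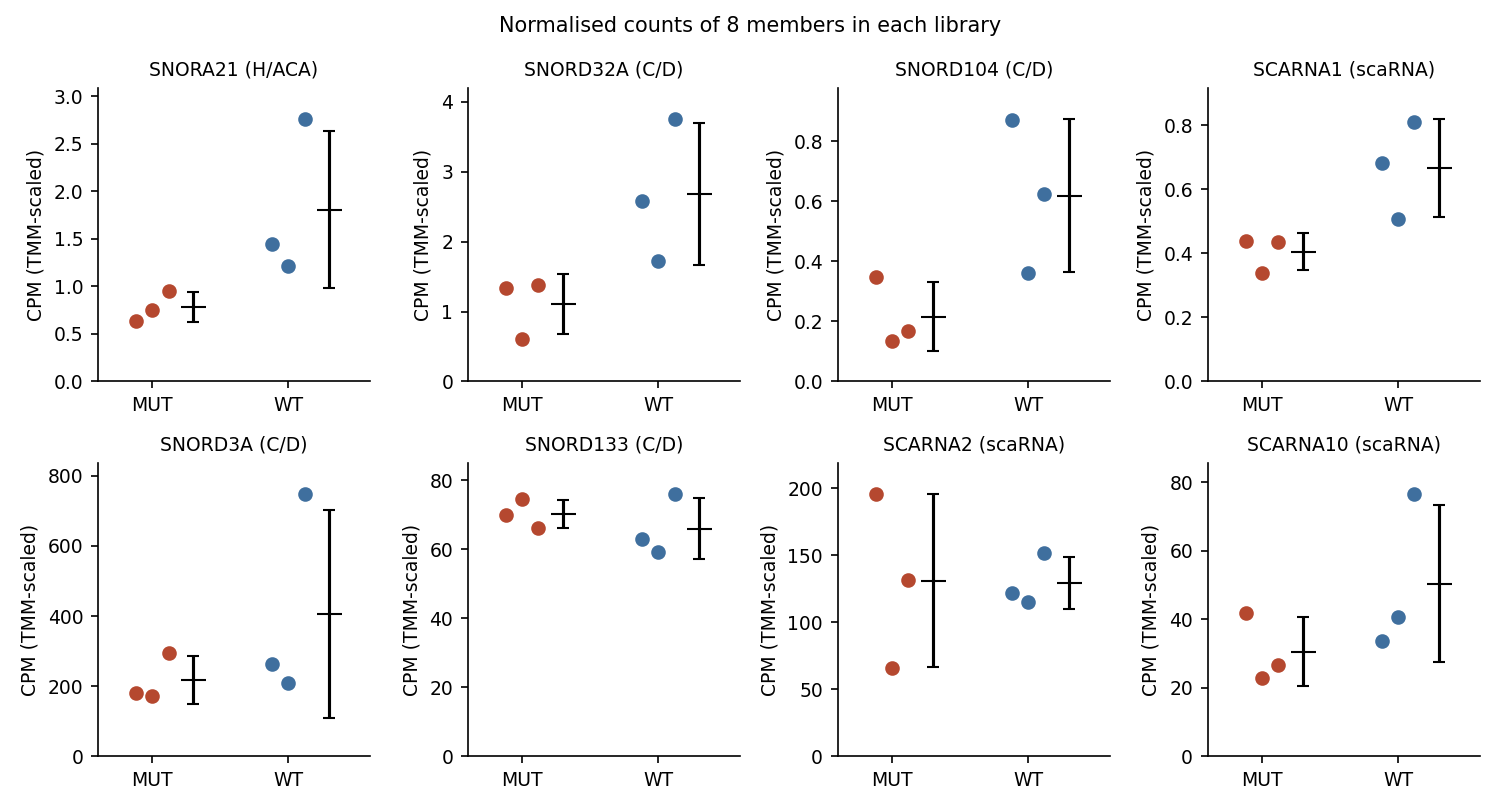
CPM (vertical axes) of 8 members in the 3 MUT (left) and 3 WT libraries (right) of each panel; points are libraries and bars the mean ± SD. SNORA21, SNORD32A, SNORD104 and SCARNA1 in the upper row do not overlap between the groups, while the abundant SNORD3A, SNORD133, SCARNA2 and SCARNA10 in the lower row do.

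Among the RNAs that cut rather than modify, U3 and U8 were not called. SNORD3A had 181, 172 and 295 CPM in MUT and 263, 208 and 748 CPM in WT (log2 fold change −0.91, SE 0.46, edgeR adjusted p = 0.323). The groups overlap, and 1 library set the size of the difference: without WT replicate 3 the log2 fold change was −0.14. SNORD3A also had 8 other GENCODE snoRNAs at least 90% identical to it, the closest, SNORD3C, at 99.5%. SNORD118, the U8 RNA needed for 5.8S and 28S ribosomal RNA, had 9, 0 and 14 counts in MUT and 12, 16 and 29 in WT (log2 fold change −1.61, SE 0.96, edgeR adjusted p = 0.397). It was −0.93 without MUT replicate 2, −2.57 without MUT replicate 3 and −0.83 without WT replicate 3. It lies in an exon of TMEM107, whose reads cannot be told from its own where they overlap.

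The abundant H/ACA guides SNORA57 and SNORA24, both for 18S ribosomal RNA, had lower means in MUT without passing the test. SNORA57 had 23.5, 11.6 and 21.5 CPM in MUT and 26.8, 21.2 and 29.4 CPM in WT, so 2 MUT libraries lay within the WT range (log2 fold change −0.45, SE 0.25, edgeR adjusted p = 0.362). SNORA24, in an intron of SNHG8, had 14.3, 5.59 and 13.4 CPM in MUT and 15.02, 14.5 and 23.7 CPM in WT; the groups did not overlap, but 14.3 CPM in MUT and 14.5 CPM in WT lay close together (log2 fold change −0.68, SE 0.33, edgeR adjusted p = 0.309). Without MUT replicate 2 the log2 fold change was −0.18 for SNORA57 and −0.34 for SNORA24, and without WT replicate 3 it was −0.43 for SNORA24. SNORA74A averaged 4.55 ± 0.525 CPM in MUT and 4.62 ± 2.65 CPM in WT (SD, n = 3 each), with no direction that held across settings. Lower non-overlapping values were also found for SNORA10, SNORA26, SNORA68, SNORA74D and SNORD46, with log2 fold changes of −0.68, −0.87, −0.97, −0.61 and −1.08 and edgeR adjusted p of 0.187 to 0.297. SNORA68 was −0.54 without WT replicate 1, and SNORD46 −0.66 without WT replicate 3. SNORA65, from an intron of RPL12, was the 1 tested member with higher non-overlapping values, at 0.506, 0.390 and 0.436 CPM in MUT and 0.362, 0.174 and 0.370 CPM in WT (log2 fold change 0.57, SE 0.38, edgeR adjusted p = 0.455, and 0.28 without WT replicate 2).

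The abundant scaRNAs included values on both sides of 0. SCARNA2, which guides ribose methylation of U2 spliceosomal RNA, had 14682, 6441 and 7852 counts in MUT and 8389, 8601 and 6554 in WT, so the WT libraries lay inside the MUT range (log2 fold change 0.02, SE 0.34, edgeR adjusted p = 0.982). Its sign changed when MUT replicate 1 (−0.39), WT replicate 1 (−0.026) or WT replicate 2 (−0.052) was left out. SCARNA10, the U85 RNA that joins both architectures and guides U5 RNA, had 41.9, 22.8 and 26.8 CPM in MUT and 33.8, 40.7 and 76.5 CPM in WT (log2 fold change −0.72, SE 0.32, edgeR adjusted p = 0.262), and −0.31 without WT replicate 3. SCARNA16 averaged 24.4 ± 6.95 CPM in MUT and 26.05 ± 17.2 CPM in WT, and SCARNA12 14.4 ± 8.21 CPM in MUT and 14.5 ± 5.77 CPM in WT (SD, n = 3 each). SCARNA13, from SNHG10, had a log2 fold change of −0.57 (SE 0.34, edgeR adjusted p = 0.403), which was −1.02 without MUT replicate 1 and −0.30 without MUT replicate 2.

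The 2 scaRNAs with an unadjusted p below 0.05 were SCARNA1 and SCARNA17. SCARNA1, which guides pseudouridylation of U2 RNA, had 0.439, 0.339 and 0.436 CPM in MUT and 0.681, 0.508 and 0.810 CPM in WT, without overlap (log2 fold change −0.71, SE 0.30, edgeR adjusted p = 0.231). The fold change of its host, PPP1R8, had the opposite sign, at 7.87 ± 0.997 CPM in MUT and 5.36 ± 0.256 CPM in WT (SD, n = 3 each; edgeR log2 fold change 0.56, SE 0.12, adjusted p = 0.0579). SCARNA17, inside SNHG22, had 1.73, 0.842 and 0.939 CPM in MUT and 2.92, 2.18 and 1.18 CPM in WT, which overlap (log2 fold change −0.86, SE 0.36, edgeR adjusted p = 0.237, and −0.55 without WT replicate 1).

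Several C/D members lie within other genes or have close copies. SNORD141A and SNORD141B had the same count as each other in every library, 1159, 0 and 979 in MUT and 157, 1775 and 826 in WT. By coordinates, both lie in exons of pseudogenes of EEF1A1, the translation elongation factor gene: EEF1A1P5 and EEF1A1P13. Another pseudogene of the family, EEF1A1P43, had a like pattern over the libraries, at 4687, 1 and 4074 counts in MUT and 392, 6779 and 3077 in WT, while EEF1A1P13 had 6522 counts in MUT replicate 2 and 95 to 161 in the other libraries. The log2 fold change of each snoRNA was −0.51 with an SE of 1.29, and it was above 0 without MUT replicate 2 or without WT replicate 2. SNORD133, within LARP4, had 69.8, 74.5 and 66.2 CPM in MUT and 62.9, 59.0 and 75.9 CPM in WT, which overlap (log2 fold change 0.09, SE 0.14, edgeR adjusted p = 0.793, and 0.027 to 0.18 with single libraries left out). In all, 11 of the 71 members with a sequence had another GENCODE snoRNA at least 90% identical, and 10 more had one at 80% to 90%.

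Position in the host was described with the GENCODE annotation. Of the 82 members 62 lay in an intron of a gene on their own strand, 8 overlapped an exon, 2 (SNORD3A and SNORA11F) had no host, and 10 had no entry in that release and were placed by coordinates alone, all within a gene. Counts of the 8 exonic members can include reads of the host's spliced RNA. There were 56 distinct hosts, of which 55 were tested. Of these, edgeR called 0 higher and 1 lower in MUT, against 0.986% and 0.925% of all tested genes. At an unadjusted p below 0.05, 4 hosts were higher and 13 lower, against 9.79% and 9.84% of all tested genes. DESeq2 called 2 hosts higher and 9 lower, with 2.78% of all tested genes called lower. The share of all tested genes that DESeq2 called higher was not computed, so the hosts called higher have no such comparison. The host called by edgeR was SNHG19, which holds SNORD60, at 11.0 ± 0.941 CPM in MUT and 18.5 ± 1.93 CPM in WT (SD, n = 3 each; edgeR log2 fold change −0.75, SE 0.13, adjusted p = 0.0277). The call held without MUT replicate 2 and was lost when any other library was left out, at adjusted p of 0.0701 to 0.146. SNORD60 itself had 0.706, 0.144 and 0.453 CPM in MUT and 0.594, 0.641 and 0.717 CPM in WT, which overlap (log2 fold change −0.60, SE 0.49, edgeR adjusted p = 0.560), and it was −1.18 without MUT replicate 1 and −0.14 without MUT replicate 2.

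MRPL23, a mitochondrial ribosomal protein gene around SNORD131, was taken up after the values were seen; it fell, with 28.5, 26.6 and 23.0 CPM in MUT and 42.2, 43.7 and 44.7 CPM in WT (log2 fold change −0.74, SE 0.12, edgeR adjusted p = 0.0243). SNORD131 had 24, 19 and 12 counts in MUT and 33, 32 and 35 in WT (log2 fold change −1.23, SE 0.39, edgeR adjusted p = 0.133). Its strand is not in the annotation used, so its reads cannot be told from intron reads of the host. The MRPL23 call, too, held without MUT replicate 2 and was lost when any other library was left out, at adjusted p of 0.0772 to 0.118.

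Fold changes of members were set beside those of their hosts. For the 57 intronic members with a tested host (48 hosts), the member and host fold changes had the same sign in 38 cases. The member was lower than its host in 39. Over all 57 pairs the median of member minus host was −0.24 on the log2 scale. The correlation across these pairs was r = 0.34 (rho = 0.35), as a description only, since the pairs share libraries and scaling. Hosts below 0 numbered 34 of 55, against 51.3% of all tested genes, with a median of −0.20, against −0.01 for all tested genes.

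**Figure D5:**
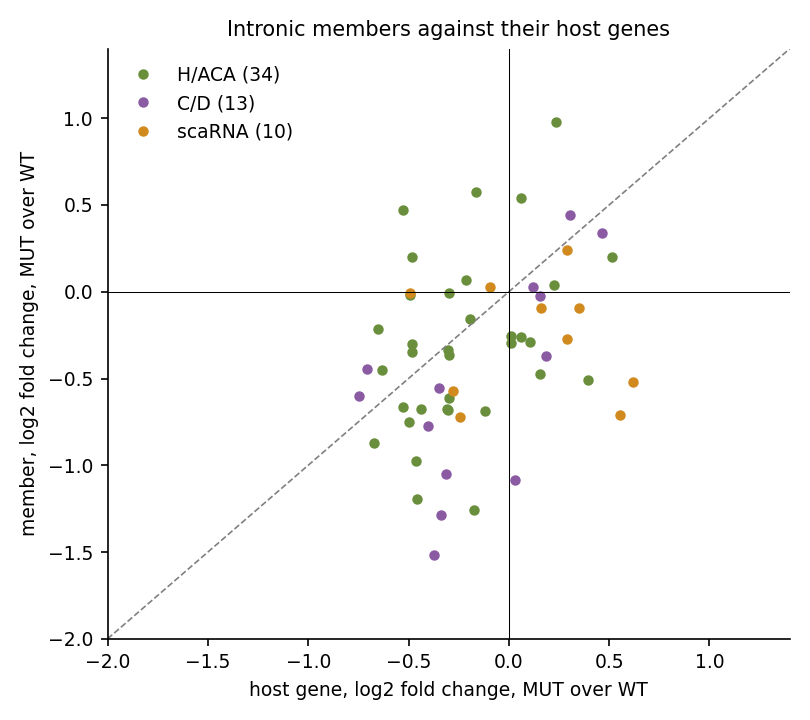
Log2 fold change of MUT over WT for 57 intronic members (vertical axis) against that of the host gene (horizontal axis), coloured by class; the dashed line marks equal values. Points lie below the line for 39 of the 57 members.

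Proteins that bind these RNAs gave 1 call. Of the 4 C/D core protein genes, FBL fell: fibrillarin, the methyltransferase of the C/D particle, had 51.5, 48.8 and 50.5 CPM in MUT and 72.6, 77.8 and 76.2 CPM in WT (log2 fold change −0.59, SE 0.12, edgeR adjusted p = 0.0475). The call was close to the threshold, with an adjusted p of 0.0872 to 0.168 when any 1 library was left out. NOP56, NOP58 and SNU13 were not called. Of the 4 H/ACA core protein genes edgeR and DESeq2 called 0, as many as had an unadjusted p below 0.05, and DKC1, which encodes dyskerin, averaged 5.50 ± 0.739 CPM in MUT and 5.03 ± 0.548 CPM in WT (SD, n = 3 each; edgeR log2 fold change 0.13, SE 0.14, adjusted p = 0.669). With single libraries left out this was between 0.019 and 0.21.

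In the other lists edgeR called 1 gene. None of 12 snoRNP assembly factors, 12 Cajal body and telomerase genes, 13 genes of snoRNA end trimming and decay and 7 U3 particle proteins passed, with list medians of 0.15, −0.02, 0.10 and 0.07, against −0.01 for all genes. At an unadjusted p below 0.05 there were 4, 3, 3 and 1 of them, against 19.6% of all tested genes. DESeq2 called 1 lower, 1 lower, 1 higher and 0 in these lists, with 2.78% of all tested genes called lower and the share called higher not computed. Of 25 tested noncoding host genes 1 was lower, SNHG19, and 0 were higher, against 0.925% and 0.986% of all tested genes. Their median was −0.18. COIL, which encodes the Cajal body scaffold coilin, averaged 5.12 ± 0.636 CPM in MUT and 3.52 ± 0.348 CPM in WT without passing (SD, n = 3 each; edgeR log2 fold change 0.54, SE 0.13, adjusted p = 0.0762).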

How the data were processed

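RNA-seq of 3 MUT and 3 WT libraries was used as 3 deposited tables. The expected counts were deposited by the authors as whole numbers per gene symbol, not normalised. The FPKM values deposited by the authors are scaled for depth and length, and the TPM values deposited by the authors likewise. Tools listed in the submitters' processing notes are STAR 2.5.2b, RSEM 1.2.28, FastQC 0.12.1 and DESeq2 1.42.0, with the build hg38; roles and strand setting are not given in the sources used here. An estimator such as RSEM divides reads between near-identical copies, so values of such members are uncertain.

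MUT and WT were compared with edgeR 4.0.16 (R 4.3.3): filterByExpr (minimum count 10), TMM scaling, glmQLFit and glmQLFTest without covariates, and Benjamini-Hochberg adjustment over 14808 genes, called below 0.05. CPM refer to TMM-scaled libraries. The standard error is the log2 fold change divided by the square root of F. On simulated data with the same design, 51% of 2-fold and 93.2% of 4-fold changes were called, and 11 of 14230 unchanged genes. The changed genes were drawn from all tested genes, so these rates are not those for the members, many of which had few counts. limma 3.58.1, DESeq2 1.42.0, other filters and scalings, a replicate block and leaving out each library were alternatives. No 2 libraries agreed within sampling noise. Lengths and coordinates came from RefSeq (GRCh38.p14) and hosts and sequences from GENCODE release 29.

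The members, lists and tests were chosen with earlier results of these data known. The rule named the 4 members of each class with the highest CPM, those of extreme fold change among members averaging 2 or more log2 CPM, members with special roles, those next to the threshold, their hosts and called list genes; other members were named after their values were seen.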

Additional observations from a re-analysis of the deposited data

How the results depend on the processing

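The all-gene median moved to 0.54 when libraries were scaled by total alone. Fold changes below were therefore shifted so that each setting had the all-gene median of the main fit, −0.01. The sign of a value nearer to 0 than this depends on the shift. Members called lower in MUT numbered 0 with edgeR, against 0.925% of all tested genes. There were 13 without a filter on low counts, against 1.8%, and 3 with DESeq2, against 2.78%. With a replicate block there was 1, SNORD32A (edgeR adjusted p = 0.0308), and the share of all genes called in that fit was not computed. No setting tried called a member higher. Same-numbered libraries did not deviate together (correlations of −0.464, −0.112 and 0.322), so the numbers were not read as pairs. With single libraries left out the median log2 fold change was −0.66 to −0.15 for H/ACA, −0.84 to −0.30 for C/D and −0.67 to 0.064 for scaRNA members, and the log2 ratio of summed H/ACA to C/D counts 0.058 to 0.45; the cause was not tested. Of the 78 tested members, 29 changed sign without at least 1 library, 14 of them without MUT replicate 2 and 16 without WT replicate 3. Among the members named, 7 changed sign under some setting. SNORA74A (−0.0045) was 0.000404 with DESeq2 size factors, 0.078 by library size, 0.12 with the block, 0.18 with limma-voom, 0.29, 0.23 and 0.28 from TPM + 1, TPM + 0.1 and FPKM + 1, 0.00107 without abundant noncoding RNA and −0.27 to 0.53 with single libraries left out. SCARNA2 (0.02) was −0.10 by library size, −0.10 with the block, −0.093 with limma-voom and −0.39 to 0.35. SCARNA16 (−0.09) was 0.064 with the block, 0.077 with limma-voom, 0.29, 0.17 and 0.24 in the same order of units and −0.38 to 0.57. SCARNA12 was 0.13, 0.029 and 0.093 in those units, 0.17 in the 4 libraries lowest in ribosomal RNA and −0.57 to 0.34. SNORD141A and SNORD141B were each −1.03 to 0.095, and SCARNA6 −0.51 to 0.064. FBL was not called by library size, from TPM or FPKM, or with any 1 library left out (adjusted p from 0.000346 to 0.980 over all settings). RNAs of 75 bases or shorter by RefSeq could not be measured in these tables, and members with few counts, such as SNORD104, are limited by depth.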

Other observations

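TERC, the telomerase RNA, ends in an H/ACA domain and binds the same core proteins, but its symbol left it outside the members. It had 31512, 21395 and 17370 counts in MUT and 29431, 29326 and 17562 in WT. Its normalised level was 420, 220 and 291 CPM in MUT and 426, 392 and 406 CPM in WT, so 2 of the MUT libraries lay below all WT libraries and 1 among them (log2 fold change −0.40, SE 0.25, edgeR adjusted p = 0.432, −0.67 without MUT replicate 1 and −0.19 without MUT replicate 2). TERT, the protein subunit of telomerase, averaged 0.390 ± 0.121 CPM in MUT and 0.921 ± 0.123 CPM in WT (SD, n = 3 each; edgeR log2 fold change −1.25, SE 0.29, adjusted p = 0.0654). It was past the threshold with DESeq2 (adjusted p = 0.0208) and with a robust fit (0.0401), and over all settings its adjusted p ranged from 0.00591 to 0.315.

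SNORA2C, from an intron of KANSL2, had the highest fold change of the members, with 24, 19 and 22 counts in MUT and 9, 6 and 11 in WT. Per scaled library this was 0.320, 0.195 and 0.369 CPM in MUT and 0.130, 0.0802 and 0.254 CPM in WT, which overlap (log2 fold change 0.98, SE 0.52, edgeR adjusted p = 0.343, and 0.65 without WT replicate 2).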
